A study of Rattus norvegicus with 12 samples.

Results

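The 10 genes described here encode receptors for extracellular nucleotides: the P2X channel subunits P2rx1, P2rx2, P2rx3, P2rx4, P2rx5 and P2rx7 and the P2Y receptors P2ry1, P2ry2, P2ry6 and P2ry12. They were found on the array by matching the RefSeq accession of each non-control probe to its gene, and are 10 of 15154 genes with a symbol there. They had 12 probes, 2 each for P2rx1 and P2rx2 and 1 for each other gene. The tissue was the body of the bladder of male Fischer 344 rats, 4 per group, and each of the 12 animals had its own 1-colour Agilent array. Old restricted rats were 25 to 28 months old, had been fed on 3 days a week since the age of 6 weeks and took about 40% fewer calories than the freely fed rats of their age. Old freely fed rats were also 25 to 28 months old and ate normal food without limit. Young rats were 6 months old and were fed in the same free way. The 8 urothelial markers on the array, which included 4 uroplakins, were well above background on all 12 arrays, as were 8 of 9 smooth muscle markers. The ninth, Tagln, missed on 1 array through a failed spot. Levels are log2 signals minus the 75th percentile of the array, so they compare animals for 1 probe and not one gene with another.

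P2X receptors are channels of 3 subunits that open when ATP binds, and P2Y receptors are G protein-coupled receptors for ATP, ADP, UTP or UDP. In the bladder, parasympathetic nerves release ATP together with acetylcholine, and the ATP contracts the detrusor through P2X1. The urothelium releases ATP when stretched, and this ATP acts on sensory endings that carry P2X3 alone or with P2X2, whose cell bodies lie in the dorsal root ganglia. Nucleotides also act on macrophages, urothelial cells, interstitial cells, vessels and platelets through other members of both families.

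Of the 10 genes, 8 had a probe detected well above background throughout 1 or more groups of 4 arrays and were tested, while P2rx5 and P2rx7 were too dim. With age P2rx4 rose and P2ry1 fell, and with restriction P2ry1 rose relative to old freely fed rats. Restricted old and young rats differed in 0 of the 8 genes (limma), against 9.18% of all features. With p under 0.05 taken without adjustment, 1 of the 8 was higher and 1 lower in that comparison. Over all 20425 features 2069 were higher and 3271 lower in the same way. P2rx4 just missed the threshold in that comparison (adjusted p = 0.0501).

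P2rx4 and P2ry1 are the members on which these results turn, and the 250 bases before their start sites are given for context. They are RefSeq sequences of the GRCr8 assembly. Capitals mark GC boxes (GGGCGG or its reverse complement CCGCCC).
P2ry1, chr2:147391411-147391660, plus strand: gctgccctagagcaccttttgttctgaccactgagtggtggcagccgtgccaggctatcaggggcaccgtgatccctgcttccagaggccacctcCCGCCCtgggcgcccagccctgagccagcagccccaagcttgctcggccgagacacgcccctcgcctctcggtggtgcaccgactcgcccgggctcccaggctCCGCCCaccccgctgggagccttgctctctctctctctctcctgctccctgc
P2rx4, chr12:39523090-39523339, minus strand: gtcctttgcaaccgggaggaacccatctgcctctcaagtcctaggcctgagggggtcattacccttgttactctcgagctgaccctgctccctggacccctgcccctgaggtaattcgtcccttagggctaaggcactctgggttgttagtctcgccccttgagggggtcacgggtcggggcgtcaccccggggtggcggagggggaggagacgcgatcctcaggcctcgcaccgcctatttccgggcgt
The P2ry1 stretch held 2 GC boxes and the P2rx4 stretch 0, and 30.5% of 33469 such stretches in the table held at least 1 on either strand. Neither held CCAAT or TATAAA on either strand, which 34% and 12.9% of all stretches did, and the motifs did not overlap. The share of G and C was 69.2% for P2ry1 and 64% for P2rx4, against a median of 51.2% over all stretches. The table matched 6 of the 10 genes, the others being P2rx2, P2rx5, P2ry6 and P2ry12.

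In the comparison of old with young freely fed rats, 1 of the 8 genes tested was higher and 1 was lower, against 3.72% of all features called in either direction. Taken without adjustment, p under 0.05 (limma) gave 1 higher and 3 lower, against 1699 and 3333 of all 20425 features. Over all 20425 features 1.63% were called higher and 2.1% lower (limma, adjusted p under 0.05), a split that turned to 364 higher and 152 lower features with quantile scaling, against 332 and 428. Leaving out 1 animal gave 73 to 378 higher and 48 to 640 lower features, with the fewest without young replicate 2. The median log2 difference was -0.02 over the 8 genes and -0.05 over all features. Old and young animals did not overlap for 3 of the 8 genes, namely P2rx4, P2ry1 and P2ry2, and for 15.1% of all features. In the comparison of old restricted with old freely fed rats, 1 of the 8 was higher and 0 were lower (limma). There p under 0.05 taken without adjustment gave 1 and 2, against 2340 and 1870 of all 20425 features. Of all features 3.64% were called, 1.62% as higher and 2.02% as lower, and normexp background correction turned the split to 580 higher and 325 lower features, against 331 and 413. The median was -0.08 over the 8 genes and 0.02 over all features, and animals did not overlap for P2ry1 and P2ry6, against 14.7% of all features. Between old restricted and young rats 0 were called, against 9.18% of all features, 3.19% as higher and 5.99% as lower (651 and 1223 features, or 827 and 880 with quantile scaling). The median was -0.13 over the 8 genes and -0.01 over all features, and animals did not overlap for P2rx1 and P2rx4, against 18% of all features. With so few genes these counts say nothing about the family as a whole. The 3 comparisons share groups, so they are not independent of each other.

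**Figure D1:**
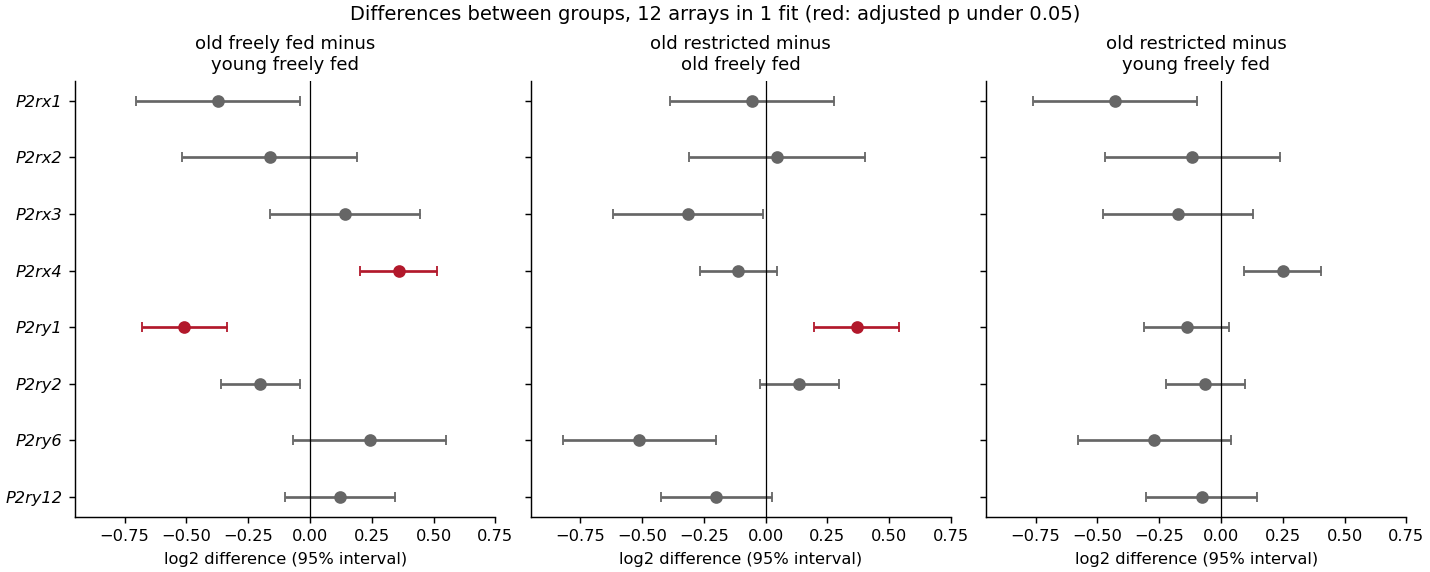
Log2 difference of each of the 8 tested genes in the 3 comparisons (x axis), with the 95% interval from limma. Red points are past an adjusted p of 0.05: P2rx4 and P2ry1 with age, and P2ry1 with restriction.

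Old and young freely fed rats shared 1 slide, each group in its own row, whereas the restricted rats were hybridised to another slide with its own scan. Restriction and slide therefore cannot be told apart, nor can age and array row. Old freely fed replicate 2 stood apart from its group along principal component 1, where it scored 51.9 and the other 3 scored 7.27 to 13.7. In bulk tissue, fewer cells of a type and less RNA per cell cannot be told apart, which holds for each gene below.

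P2ry1 encodes an ADP receptor that signals through Gq and is known from platelets, vessels and smooth muscle, where it takes part in purinergic relaxation of visceral organs. Its level was -2.33, -2.41, -2.38 and -2.42 in old restricted rats, -2.68, -2.90, -2.66 and -2.78 in old freely fed rats, and -2.17, -2.19, -2.15 and -2.47 in young rats. All 4 old freely fed animals lay below the animals of both other groups. Old restricted and young animals overlapped, because young replicate 4 was lower than all 4 restricted animals. P2ry1 fell by 1.42-fold in old freely fed rats, to -2.75 ± 0.11 against -2.24 ± 0.15 in young rats (SD, n = 4 each). That is a log2 difference of -0.51 (SE 0.08, 95% interval -0.68 to -0.34, limma adjusted p = 0.0124). In restricted rats it was 1.29-fold higher than in old freely fed rats, at -2.38 ± 0.04 against -2.75 ± 0.11, a log2 difference of 0.37 (SE 0.08, 95% interval 0.20 to 0.54, limma adjusted p = 0.027). Between old restricted and young rats the log2 difference was -0.14, with an interval of -0.31 to 0.03 (limma adjusted p = 0.283).

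The call of P2ry1 with age was kept whichever 1 of the 12 animals was left out. It was lost in a fit of those 2 groups alone (adjusted p = 0.0559) and without old freely fed replicates 2 and 4 together (log2 -0.42, adjusted p = 0.0659). The call with restriction was lost when old freely fed replicate 2 (adjusted p = 0.0623) or 4 (0.0534) was left out, and without any 1 of the restricted replicates 1 to 4 (0.0649, 0.0677, 0.0596 and 0.0647), with log2 differences of 0.32 to 0.38. Leaving out both of those old freely fed animals gave 0.28 (adjusted p = 0.171).

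Several marker sums differed between the groups in which P2ry1 differed. A sum here adds the linear signals of a list's markers, in multiples of the 75th percentile of the array. The sum of 8 smooth muscle markers was 208.4 to 240.9 in old restricted, 206.1 to 254.1 in old freely fed and 276.7 to 287.6 in young rats. The 2 old groups overlapped in it, and the young animals lay above both. For 8 interstitial cell and fibroblast markers it was 88.8 to 97.3 in old restricted, 67.7 to 90.2 in old freely fed and 76.2 to 106 in young rats. Of these 8, however, 0 rose and 0 fell with restriction (median log2 difference 0.08), and 0 rose and 2 fell with age (median -0.28). For 3 platelet markers the sum averaged 1.97 in old restricted, 2.95 in old freely fed and 2.23 in young rats. The 4 platelet markers tested had a median log2 difference of -0.06 with age, with 1 risen and 0 fallen. The sum and the median differ in sign, but the median includes Ppbp, which was left out of the sum for a failed spot. The 6 endothelial markers gave sums of 4.60 to 5.30, 5.50 to 6.34 and 4.97 to 5.82 in the same order. Of these 6, 0 rose and 0 fell with age (median log2 difference -0.03), and 0 rose and 1 fell with restriction (median -0.11). The sum of 8 urothelial markers was 280.4 to 293.1 in old restricted, 241.8 to 276.1 in old freely fed and 277 to 301.3 in young rats. In it the old freely fed animals lay below both other groups, as they did in P2ry1. Yet 1 of the 8 markers rose and 0 fell with age (median log2 difference -0.12), and with restriction 0 rose and 0 fell (median 0.15). The macrophage and T cell sums, given with P2rx4, were on average highest in old freely fed rats. The part of these cell types in the P2ry1 result was not tested.

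**Figure D2:**
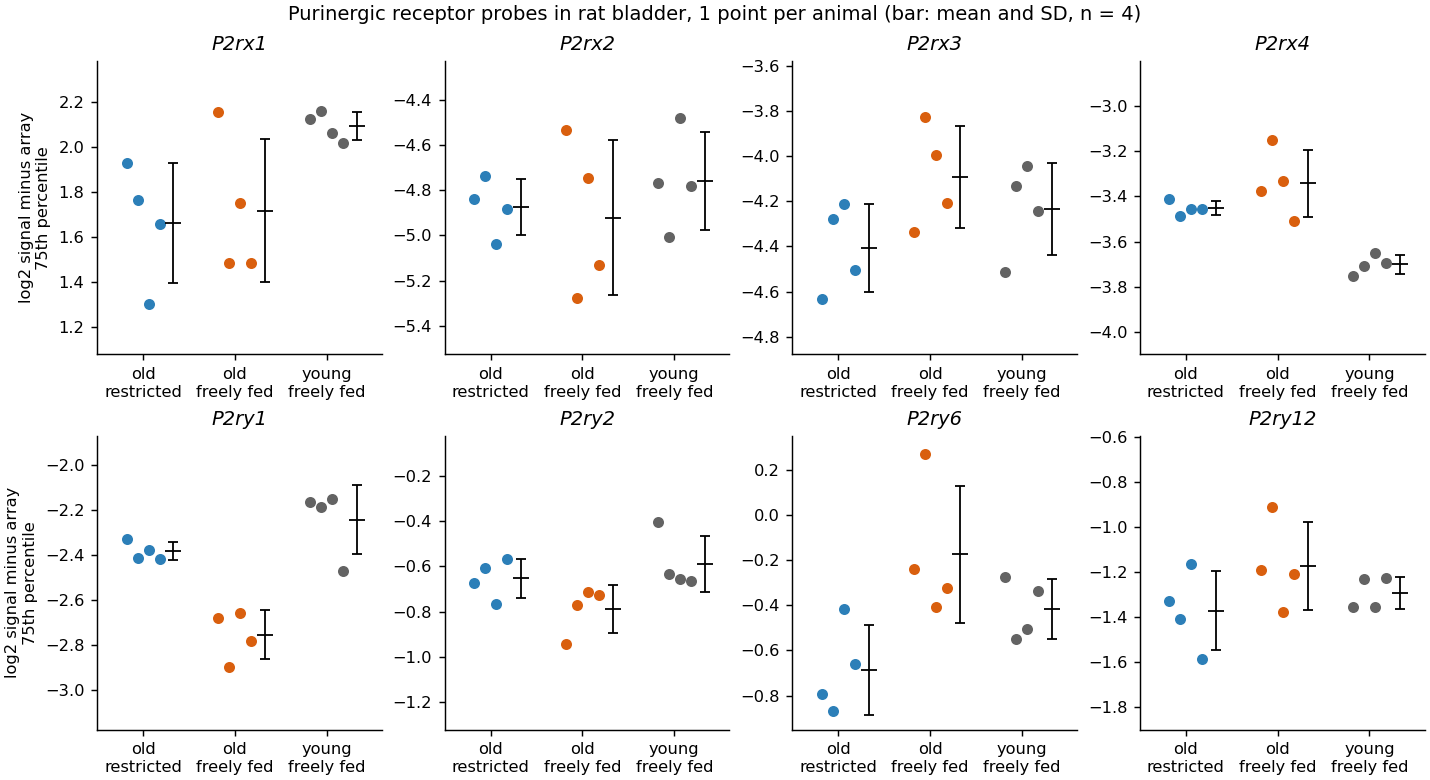
Level of the 8 tested genes in each animal (y axis, log2 signal minus the 75th percentile of the array; each panel spans the same log2 range), with old restricted, old freely fed and young rats from left to right and the mean and SD (n = 4) as bars. P2ry1 is lowest in the old freely fed rats and P2rx4 is lowest in the young rats.

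P2rx4 encodes a widely expressed ATP-gated channel that is also found in macrophages and in lysosomes. Its level was -3.41, -3.49, -3.45 and -3.45 in old restricted rats, -3.38, -3.15, -3.33 and -3.51 in old freely fed rats, and -3.75, -3.71, -3.65 and -3.70 in young rats. All 8 old animals lay above all 4 young animals, and the 2 old groups overlapped. P2rx4 rose 1.28-fold in old freely fed rats, to -3.34 ± 0.15 against -3.70 ± 0.04 in young rats (SD, n = 4 each), with a log2 difference of 0.36 (SE 0.07, 95% interval 0.20 to 0.52, limma adjusted p = 0.0283). Between old restricted and old freely fed rats the log2 difference was -0.11, with an interval of -0.27 to 0.05 (limma adjusted p = 0.411). Between old restricted rats, at -3.45 ± 0.03, and young rats it was 0.25 with an interval of 0.09 to 0.41, which did not pass (limma adjusted p = 0.0501) but passed in 8 of the 13 other settings. The call with age was lost without young replicate 1 (log2 0.34, adjusted p = 0.0682), 2 (0.36, 0.072) or 3 (0.38, 0.0522), when old freely fed replicate 3 was left out (0.36, 0.06), and in a fit of the 2 groups alone (adjusted p = 0.0809).

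Macrophage and T cell markers moved in the same direction as P2rx4 with age. The sum of 12 macrophage markers was 27.8 to 37.4 in old restricted, 36.8 to 67.7 in old freely fed and 27.3 to 32.0 in young rats, with 12 of 12 well above background on every array. With age 2 of the 12 rose and 0 fell, and their median log2 difference was 0.48. The sum of 9 T cell markers was 1.49 to 1.89, 2.15 to 2.77 and 1.15 to 1.55 in the same order, and 5 of the 9 rose with age. Restricted rats overlapped young rats in both sums and had the higher means, 31.2 against 29.0 for macrophages and 1.62 against 1.41 for T cells. In P2rx4 all 4 restricted animals lay above the young rats. The part of these cells in the P2rx4 result was not tested.

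P2rx1 encodes the main channel through which nerve-released ATP contracts the detrusor. Its level was 1.93, 1.77, 1.30 and 1.66 in old restricted rats, 2.15, 1.48, 1.75 and 1.48 in old freely fed rats, and 2.12, 2.16, 2.06 and 2.02 in young rats. The young animals lay close together, 7 of the 8 old animals were below them, and old freely fed replicate 1 lay among them. The log2 difference with age was -0.37 (SE 0.15, 95% interval -0.70 to -0.04) and did not pass (limma adjusted p = 0.156). It did pass without old freely fed replicate 1 (log2 -0.52, adjusted p = 0.0445). Between old restricted and young rats, which did not overlap, it was -0.43 (95% interval -0.76 to -0.10, limma adjusted p = 0.0993). Without old freely fed replicate 1, which enters that comparison only through the pooled spread, the adjusted p was 0.0454. Between old restricted and old freely fed rats it was -0.05, with an interval of -0.39 to 0.28 (limma adjusted p = 0.872). The second P2rx1 probe, tested in a fit on all probes, gave -0.46 with age, -0.01 with restriction and -0.47 between old restricted and young rats (adjusted p = 0.096, 0.979 and 0.0751).

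The level of P2rx1 and the smooth muscle sum had the same highest and lowest animals within each old group, but not the same order throughout. Old freely fed replicate 1 had the highest sum of its group, 254.1, with the highest P2rx1, and replicates 2 and 4 had sums of 206.1 and 206.8 with the lowest P2rx1 of their group. Among restricted animals, replicate 1 had the highest sum (240.9) and P2rx1 level, and replicate 3 the lowest of both (208.4). Restricted replicate 4 had a higher sum than replicate 2 (236.8 against 229.2) and a lower P2rx1 level (1.66 against 1.77). Of the 9 smooth muscle markers 2 fell and 0 rose with age, and 4 fell and 0 rose in old restricted against young rats. The part of smooth muscle content in the P2rx1 values was not tested.

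**Figure D3:**
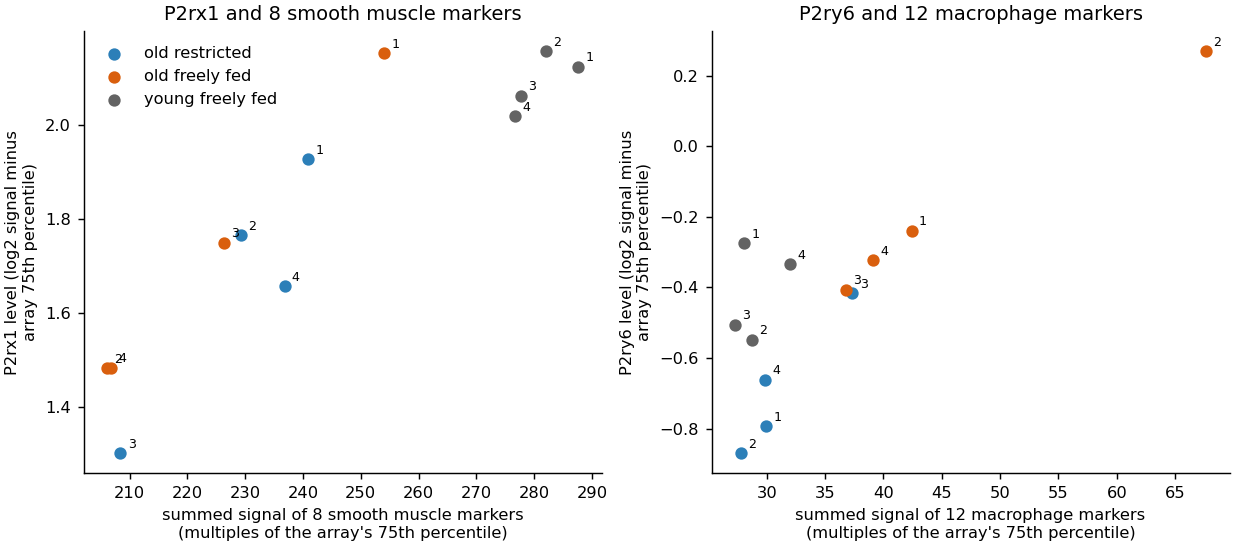
Level of P2rx1 (left, y axis, log2 signal minus the 75th percentile of the array) against the summed signal of 8 smooth muscle markers, and level of P2ry6 (right) against that of 12 macrophage markers, with 1 point per animal numbered by replicate. The young animals have the highest smooth muscle sums, 276.7 to 287.6, and old freely fed replicate 2 has the highest macrophage sum, 67.7, and the highest P2ry6 level.

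P2rx2 and P2rx3 encode the subunits of the channels by which sensory nerve endings respond to ATP. The cell bodies of these nerves lie outside the bladder, so the levels below do not measure receptor RNA in those cell bodies. The brighter P2rx2 probe was printed 10 times on each array, and the SD of its log2 signal over those spots was 0.0644 to 0.171. Its level was -5.04 to -4.74 in old restricted, -5.28 to -4.53 in old freely fed and -5.01 to -4.48 in young rats. The 3 groups overlapped. The log2 difference was -0.16 with age (95% interval -0.52 to 0.19), 0.05 with restriction (-0.31 to 0.40) and -0.12 between old restricted and young rats (-0.47 to 0.24; limma adjusted p = 0.559, 0.9 and 0.688). The second P2rx2 probe was well above background on 2 of 4, 3 of 4 and 1 of 4 arrays of old restricted, old freely fed and young rats and was left out of the test.

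P2rx3 had levels of -4.63, -4.28, -4.21 and -4.50 in old restricted rats, -4.34, -3.83, -3.99 and -4.21 in old freely fed rats, and -4.51, -4.13, -4.04 and -4.24 in young rats. The 3 groups overlapped, and the restricted rats had the lowest mean. The log2 difference with restriction was -0.31 (95% interval -0.62 to -0.01, limma adjusted p = 0.23), and it was 0.14 with age (-0.16 to 0.45, limma adjusted p = 0.554). It was -0.17 between old restricted and young rats (-0.48 to 0.13, limma adjusted p = 0.464). None of the 3 passed. The sum of 10 nerve and Schwann cell markers was 59.5 to 65.3 in old restricted, 52.9 to 58.8 in old freely fed and 56.6 to 64.1 in young rats. Its mean was highest in the old restricted rats. The median log2 difference of the same 10 markers was -0.17 with restriction and -0.21 between old restricted and young rats, where 2 fell, so sum and median differ in direction. The part of nerve content in the P2rx3 values was not tested.

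P2rx7 encodes the channel that needs high ATP and leads to interleukin 1 release in macrophages. It was well above background on 0 of 4 arrays of old restricted, 2 of 4 of old freely fed and 0 of 4 of young rats, so no fold is given. Its processed signal was 13.3 to 18.0 in old restricted, 11.8 to 24.0 in old freely fed and 8.51 to 12.9 in young rats, and its 10 spots on an array varied with an SD of 0.22 to 0.753 on the log2 scale. P2rx5, another channel subunit, was well above background on 0 of 4, 1 of 4 and 0 of 4 arrays in the same order, with highest signals of 14.9, 26.1 and 48.5. The last of these, in young replicate 4, was not called above background. The lowest log2 level among probes well above background was -7.73 to -7.46 on arrays of old restricted, -8.40 to -7.81 on those of old freely fed and -7.14 to -6.89 on those of young rats. A dim probe was thus called detected at a lower level in old freely fed rats, the group that had the arrays with detected P2rx5 or P2rx7.

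**Figure D4:**
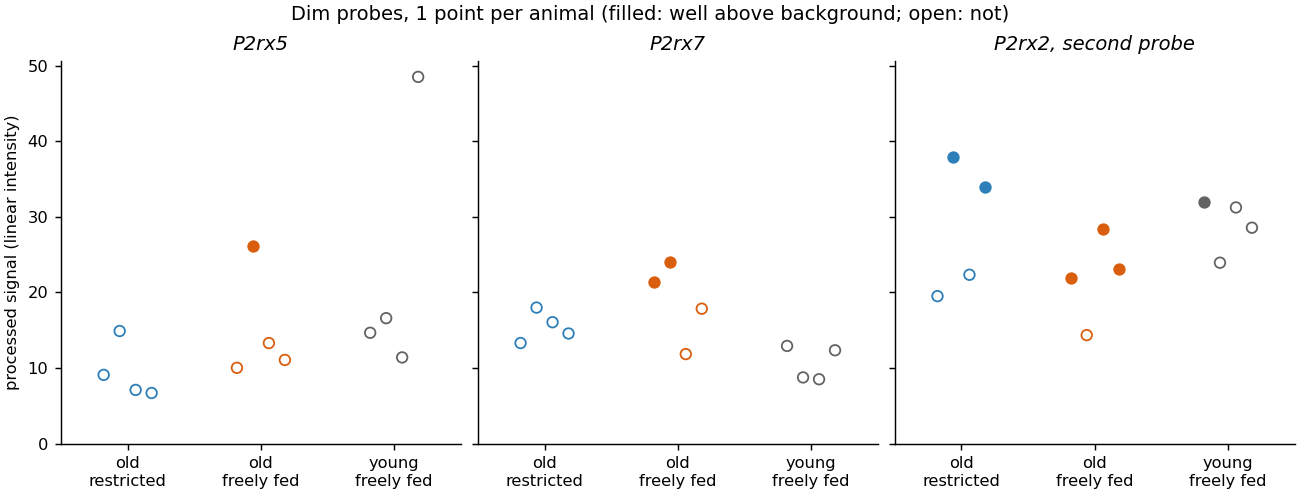
Processed signal (y axis, linear intensity from 0) of the probes for P2rx5 and P2rx7 and of the second P2rx2 probe, with 1 point per animal and old restricted, old freely fed and young rats from left to right. Filled points were well above background: 2 old freely fed animals for P2rx7, 1 for P2rx5, and 2 old restricted, 3 old freely fed and 1 young animal for the second P2rx2 probe.

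P2ry6 encodes a UDP receptor that is known from macrophages, epithelia and smooth muscle. Its level was -0.79, -0.87, -0.42 and -0.66 in old restricted rats, -0.24, 0.27, -0.41 and -0.32 in old freely fed rats, and -0.27, -0.55, -0.51 and -0.33 in young rats. All 4 restricted animals lay below all 4 old freely fed animals, although the nearest pair were at -0.42 and -0.41, and overlapped the young ones. The log2 difference with restriction was -0.51 (SE 0.14, 95% interval -0.82 to -0.20) and did not pass (limma adjusted p = 0.071). It passed after normexp background correction (log2 -0.52, adjusted p = 0.0481) and after normexp with quantile scaling (-0.54, 0.0396). Without old freely fed replicate 2, the highest of the 12 animals in both P2ry6 and the macrophage sum (67.7), it was -0.36 (adjusted p = 0.107). It was 0.24 with age (-0.07 to 0.55, limma adjusted p = 0.314) and -0.27 between old restricted and young rats (-0.58 to 0.04, limma adjusted p = 0.25). The probe was printed 10 times on each array, and the SD over those spots was 0.0233 to 0.0595, well under the spread between animals (SD 0.20, 0.30 and 0.13 for old restricted, old freely fed and young rats). The part of macrophages in these values was not tested.

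P2ry2 encodes a receptor for ATP and UTP that is prominent in epithelia. Its level was -0.67, -0.61, -0.77 and -0.57 in old restricted rats, -0.94, -0.77, -0.71 and -0.73 in old freely fed rats, and -0.40, -0.63, -0.66 and -0.66 in young rats. All old freely fed animals lay below all young animals, and restricted animals overlapped both groups. The log2 difference with age was -0.20 (95% interval -0.36 to -0.04) and did not pass (limma adjusted p = 0.123). It was 0.14 with restriction (-0.02 to 0.30, limma adjusted p = 0.317) and -0.06 between old restricted and young rats (-0.22 to 0.10, limma adjusted p = 0.613). The urothelial sum, given with P2ry1, was likewise lower in all old freely fed than in all young animals, the nearest being at 276.1 and 277. Of the 8 urothelial markers, however, 1 rose and 0 fell with age. The part of urothelium in the P2ry2 values was not tested.

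P2ry12 encodes the Gi-coupled ADP receptor of platelets and microglia. Its level was -1.33, -1.41, -1.16 and -1.58 in old restricted rats, -1.19, -0.91, -1.38 and -1.21 in old freely fed rats, and -1.36, -1.23, -1.36 and -1.23 in young rats. The 3 groups overlapped. The log2 difference was 0.12 with age (95% interval -0.10 to 0.34), -0.20 with restriction (-0.42 to 0.02) and -0.08 between old restricted and young rats (-0.30 to 0.14; limma adjusted p = 0.489, 0.296 and 0.664).

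Several of these genes are neighbours in the GRCr8 assembly. P2rx4 and P2rx7 on chromosome 12 have 0 protein-coding genes between them, as do P2ry6 and P2ry2 on chromosome 1 and P2ry13 and P2ry12 on chromosome 2. Adjacent P2ry6 and P2ry2 had 0 calls each in the 3 comparisons, as had P2ry13 and P2ry12, and P2rx7 beside P2rx4 was not tested. P2ry6 had a log2 difference of 0.24 with age and P2ry2 one of -0.20, and neither passed. P2ry14, which lies near P2ry13 and P2ry12 with 1 gene between it and P2ry13, rose with age, while both neighbours did not pass.

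Genes with profiles like those of P2ry1 and P2rx4 were sought among 12028 others with a symbol, by the root mean square difference between centred log2 levels over the 12 arrays. The nearest to P2ry1 were Smarcd3, Rab40c and Acvr1, at 0.0918, 0.0964 and 0.101. Their log2 differences with age were -0.44, -0.41 and -0.32, and those with restriction 0.22, 0.27 and 0.27. The nearest to P2rx4 were Irak2, Abcg3l4 and Dock8, at 0.0597, 0.0692 and 0.0793, with log2 differences of 0.29, 0.30 and 0.28 with age and -0.11, -0.13 and -0.04 with restriction. These differences follow from the choice of genes and are given as a description.

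A further 37 genes listed for purinergic signalling covered the other P2 receptors, adenosine receptors, enzymes, and release channels and transporters. The enzymes were listed broadly and included Dpp4, Adk, Entpd5 and Enpp2, so not all of them break down extracellular nucleotides. Of the 37 genes, 36 were on the array and 30 were tested. With age 1 rose and 1 fell (1.63% and 2.1% over all features), with restriction 1 rose and 0 fell (1.62% and 2.02%), and in old restricted against young rats 2 rose and 2 fell (3.19% and 5.99%). The medians were -0.05, -0.02 and -0.02, against -0.05, 0.02 and -0.01 over all features.

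P2ry14, a receptor for UDP-glucose, was at -3.33, -3.38, -3.31 and -3.30 in old restricted rats, -3.25, -3.11, -3.44 and -3.36 in old freely fed rats, and -3.77, -3.74, -3.66 and -3.67 in young rats. All 8 old animals lay above the young ones. It rose with age by a log2 difference of 0.42 (SE 0.07, limma adjusted p = 0.0163) and was higher by 0.38 in old restricted than in young rats (adjusted p = 0.0098). The call with age was lost without young replicate 2 (0.41, adjusted p = 0.0534), in a fit of the 2 groups alone (adjusted p = 0.0654) and without old freely fed replicates 2 and 4 together (0.37, adjusted p = 0.0625). P2ry13, an ADP receptor of leukocytes, had a log2 difference of 0.60 with age that did not pass (adjusted p = 0.0982).

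Among enzymes, Enpp1, which cleaves ATP to AMP and pyrophosphate, fell with age (log2 -0.32, SE 0.07, limma adjusted p = 0.0356) and was lower in old restricted than in young rats (-0.28, adjusted p = 0.0299). The call with age was lost without any 1 of the 4 young animals, old freely fed replicates 2, 3 or 4 or old restricted replicate 2 (log2 -0.35 to -0.28, adjusted p = 0.0554 to 0.0882), with quantile scaling alone (-0.29, 0.054) or after normexp (-0.27, 0.056), in a fit of the 2 groups (0.0729) and when old freely fed replicates 2 and 4 were both left out (-0.25, 0.223). The call between old restricted and young rats was lost without young replicates 2 or 4 or old restricted replicates 1, 2 or 3 (-0.31 to -0.24, adjusted p = 0.0516 to 0.0795), and after normexp alone (-0.24, 0.0516) or with quantile scaling (-0.23, 0.0569). Its level was -0.57, -0.53, -0.38 and -0.35 in old restricted, -0.35, -0.59, -0.50 and -0.55 in old freely fed and -0.27, -0.06, -0.22 and -0.16 in young rats. Both old groups lay below the young animals and overlapped each other. Entpd2, an ectonucleotidase that turns ATP into ADP, was lower in old restricted than in young rats by its brightest probe (-0.56, SE 0.12, adjusted p = 0.0175). Another Entpd2 probe gave -0.44 (adjusted p = 0.0361) and the remaining one 0.14 (SE 0.37, adjusted p = 0.852). The interval of the remaining probe, -0.68 to 0.95, held the values of the other probes. It was too wide to show whether the Entpd2 probes disagreed. The call of the brightest probe was lost without old restricted replicate 3 (adjusted p = 0.054). Entpd5, an intracellular nucleoside diphosphatase, was higher in that comparison (0.30, SE 0.05, adjusted p = 0.00695). Enpp2, whose main product is lysophosphatidic acid rather than a nucleotide, was higher in old restricted than in old freely fed rats (0.26, SE 0.06, adjusted p = 0.0372) and lost the call in 8 of the 12 fits without 1 animal (log2 0.22 to 0.28, adjusted p = 0.0514 to 0.0936). These were the fits without young replicates 2 or 3, any old freely fed replicate except 4 or any old restricted replicate except 2. It was also lost after normexp alone (0.23, adjusted p = 0.0707) or with quantile scaling (0.21, 0.0896), in a fit of the 2 groups (0.0665) and when both old freely fed replicates 2 and 4 were left out (0.23, 0.153). The 3 adenosine receptors and 10 release and transport genes tested had 0 calls in the 3 comparisons (limma). Adora1, the A1 receptor gene, had a log2 difference of -0.55 with age (limma adjusted p = 0.14). It was well above background on only 2 of 4 arrays of young rats, the group with the higher mean, so this value is limited by its low signal. Slc17a9, the vesicular nucleotide transporter gene, had a log2 difference of 0.50 with restriction (limma adjusted p = 0.0801).

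**Figure D5:**
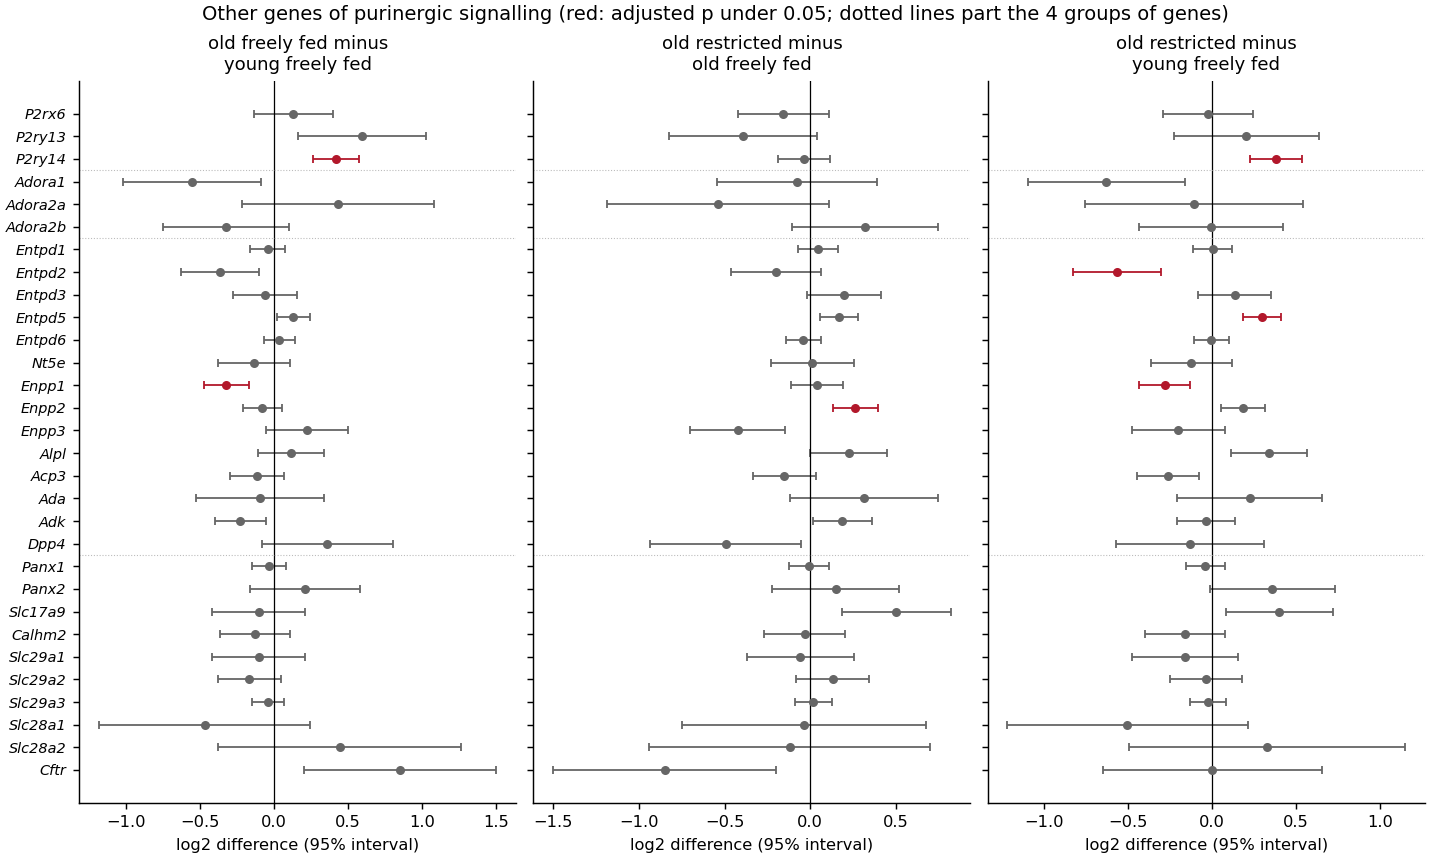
Log2 difference with its 95% interval (x axis) for the 30 tested genes of the wider purinergic list in the 3 comparisons. Red points are past an adjusted p of 0.05: P2ry14 and Enpp1 with age, Enpp2 with restriction, and P2ry14, Entpd2, Entpd5 and Enpp1 in old restricted against young rats.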

How the data were processed

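The deposited values were spot intensities, background-subtracted and detrended within each array by Agilent Feature Extraction 10.7, per the file headers and the submitters' processing notes, with no scaling between arrays (design 028279, build rn4). The deposited table of the series held the same intensities in 100% of spots. Here log2 signals were set against the 75th percentile of each array (3993 to 4892), spots marked as outliers were left out, and spots of a probe were averaged. RefSeq accessions gave symbols to 17998 of 30367 probes. Probes had to be well above background in every animal of 1 or more groups, and the brightest stood for a gene, which left 20425 features. Arrays of 1 group correlated at r = 0.985 to 0.997.

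Models used limma 3.58 in R 4.3 on all 12 arrays, with errors moderated along brightness (residual df 9, prior df 2.72). Tests were two-sided, and p-values were adjusted over all features by Benjamini-Hochberg, with a threshold of 0.05. The number of arrays limits the precision. Named genes were all members, called genes of the wider list and the 3 nearest profiles of each called member. Marker lists covered smooth muscle, urothelium, macrophages, T cells, endothelium, interstitial cells and fibroblasts, nerve, platelets, and prostate and seminal vesicle. Of the 7 genes in the last list 4 were tested, and 4 fell with age and in old restricted against young rats. In that list Pbsn, Svs4 and Svs5 were well above background on 0 of 12 arrays and Andpro on 5. Those 5 were all young arrays and that of old freely fed replicate 3. Andpro thus passed the filter only through the young rats, so its fall was favoured by the filter and adds nothing to the count. A marker whose spots on an array differed by over 8-fold was left out of the sums, which was added after seeing the data. Alternatives were other scalings, normexp (offset 50, on median signals, since the files hold no mean signal), other filters and probes, and outlier spots kept. Others were a fit without the trend, of 2 groups or with a replicate block, the deposited table in place of the scanner files, and fits without 1 animal. Only the model fit was tested on simulated data, with normal noise on scaled gene levels. Scaling, filters, spot handling and marker sums were not covered, and the smallest planted change was larger than those of the called members. Members and lists were chosen with earlier results of these data known.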

Additional observations from a re-analysis of the deposited data

Results flagged for a closer look

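Within groups of 4 animals, the gap of the highest or lowest animal to the next was compared with Dixon's 95% critical value, for 13 genes in 3 groups each. Chance flags about 1 in 20 groups, and 3 of 39 were flagged. P2ry1 in young replicate 4 was at -2.47 against -2.19 to -2.15 in the other 3 young animals. Without that animal the log2 difference of P2ry1 with age was -0.58 (limma adjusted p = 0.00447) and that between old restricted and young rats -0.22 (adjusted p = 0.0607). P2ry2 in young replicate 1 was at -0.40 against -0.66 to -0.63 in the other 3, and without it the log2 difference with age was -0.14 (adjusted p = 0.242). Enpp2 in old freely fed replicate 2 was at -0.20 against -0.04 to -0.02 in the other 3, and without it the log2 difference with restriction was 0.22 (adjusted p = 0.0796).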

How the results depend on the processing

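The 8 tested genes gave 24 differences. In the 13 other settings 300 of 312 values kept their direction and their side of the threshold, while 10 came to pass and 2 no longer passed. These settings include the deposited table, which held the same intensities in 100% of spots, so its 24 values could not differ. The second brightest probe was another probe only for P2rx1. In the 12 fits without 1 animal 270 of 288 values kept their direction and side. There 10 no longer passed, 4 came to pass and 4 that had not passed changed sign. Members called higher with age numbered 0 to 1 without 1 animal and 0 in a fit of the 2 groups alone. Those called lower numbered 1 to 2 without 1 animal, 0 in a fit of the 2 groups and 0 without old freely fed replicates 2 and 4, the 2 of their group farthest along the first principal component, which was chosen after seeing the data. With restriction, members called higher numbered 0 to 1 without 1 animal and 0 without those 2 animals, and those called lower numbered 0 without 1 animal and 1 with normexp, with or without quantile scaling. Between old restricted and young rats, members called lower numbered 0 to 1 without 1 animal. Those called higher numbered 0 to 1 without 1 animal, and 1 with quantile scaling, median centring, normexp with quantile scaling, no filter, a filter on all 12 arrays, all probes, no trend, a fit of the 2 groups, and without old freely fed replicates 2 and 4. That gene was P2rx4 in each case.

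Over all features, calls with age were 332 higher and 428 lower, against 364 and 152 with quantile scaling, 355 and 306 with median centring, 287 and 124 with normexp and quantile scaling, 67 and 27 in a fit of the 2 groups, 691 and 2877 with no filter, 236 and 204 without the trend, and 216 and 367 with normexp. With restriction they were 331 and 413, against 580 and 325 with normexp, 213 and 265 in a fit of the 2 groups and 420 and 579 with normexp and quantile scaling. For old restricted against young rats they were 651 and 1223, against 781 and 2478 with no filter. Without 1 animal, all-feature calls ran over 73 to 378 higher and 48 to 640 lower with age, 117 to 390 and 151 to 458 with restriction, and 278 to 758 and 459 to 1331 between old restricted and young rats. The fewest came without young replicate 2, old restricted replicate 2 and old restricted replicate 3, one for each comparison in that order. The same replicate numbers were used in each group and equalled the array column, but no label tied animals together across groups. Over all features tested, same-numbered animals did not deviate together (r = -0.19 to 0.0951). For P2rx3, however, replicate 1 was the lowest animal in each group. With the replicate number as a block, the SE of its differences fell from 0.14 to 0.07. The adjusted p of P2rx3 with restriction then went from 0.23 to 0.0569 (limma), which did not pass. With the replicate number as a block, P2ry1 had a log2 difference of -0.51 with age (adjusted p = 0.0273) and 0.37 with restriction (0.0349), P2rx4 had 0.36 with age (0.0493), no member's call changed, both Enpp1 calls were lost (adjusted p = 0.0637 with age and 0.0595 between old restricted and young rats), and features called with age numbered 215 higher and 283 lower. Slide could not be fitted as a block for the comparisons with restricted rats, since no slide held both groups. For age the slide was shared by both groups. The second P2rx2 probe, P2rx5 and P2rx7 were limited by signal over background.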
